A study of Mus musculus with 16 samples.

Results

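Potassium channel genes were examined for binding of Meis1 and Hoxb13 in the ventricles of young mice. The members are all 94 protein-coding genes of the mouse whose symbol begins with Kcn, among 21887 protein-coding genes on chromosomes 1 to 19, X and Y of the build mm10. Of these, 18 were listed as cardiac channels, because they carry or shape a current known from heart muscle, and 26 as neuronal channels, known mainly from neurons. The remaining 50 were listed as other Kcn genes. The lists are a choice and not exhaustive, and some of the other Kcn genes may also act in the heart. A gene held a peak when a deposited peak overlapped its body extended by 5 kb on either side, by at least 1 bp. A region is the merge of overlapping peaks of the 4 libraries of an antibody, and it was taken as called in a gene's window when at least 2 of these libraries held it.

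Potassium channels let potassium leave the cell and so return the membrane to its resting voltage after an action potential. In cardiomyocytes, voltage-gated channels repolarise the membrane, inward rectifiers hold the resting potential, and the ATP-sensitive channels link excitability to the energy state of the cell. Several of the cardiac channels, such as Kcnd2 and Kcnn2, are known from neurons as well, so the lists divide the genes by the tissue they are best known in and not by exclusive expression. Meis1 and Hoxb13 are homeodomain transcription factors that can bind DNA together with partner proteins.

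The data are ChIP-seq peak lists, which name the stretches of DNA recovered with an antibody above the local background. There were 2 control libraries and 2 Paro/Neo libraries for each antibody. All came from hearts at postnatal day 15. Control mice received PBS, and Paro/Neo mice received paromomycin with neomycin at 150 mg/kg, 2 injections a day, for 7 days from postnatal day 7. No strain, sex or genotype is given in the labels, and each sample is described with ventricles of 2 hearts, without saying whether these were pooled. The Meis1 antibody is labelled Meis1/2, so Meis2 may contribute to its peaks. Ventricle is a mixed tissue, and a peak in few cells cannot be told apart from weak binding in many. The titles of the Meis1 and Hoxb13 samples follow different styles, each with inputs of its own, and the antibodies cannot be told apart from these sets. The 8 inputs were not analysed here.

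Peak lists differed in length, from 1025 to 3529 peaks for Meis1 and from 821 to 16963 for Hoxb13, and the reads behind them are not known. A gene without a peak in a short list therefore is not shown to be unbound. The 2 longest Hoxb13 lists, control 1 and Paro/Neo 2, stood apart from the other Hoxb13 lists. The letters in the names of the second Meis1 lists are those of the opposite group, and the labels were followed. Of all protein-coding genes, 2.83% to 8.59% held a peak in the Meis1 libraries and 4.20% to 46.5% in the Hoxb13 libraries. Of 8 cardiomyocyte marker genes, 8 held a peak in each Hoxb13 library and 2 to 5 in the Meis1 libraries. Genes of like length, a number described below, would give 0.361 to 3.93 in the Hoxb13 and 0.221 to 0.648 in the Meis1 libraries. Of 8 neuron and glia markers, 1 (Rbfox3) held a peak in each Meis1 library and the other 7 held none. In the Hoxb13 libraries 0 of the 8 held one. Genes of like length would give 0.448 to 1.3 in the Meis1 and 0.377 to 4.32 in the Hoxb13 libraries. Smooth muscle markers held peaks at 0 of 6 genes in each Meis1 library and at 0 to 5 of 6 in the Hoxb13 libraries. Genes of like length would give 0.151 to 0.48 and 0.259 to 3.12. Endothelial markers held them at 2 of 6 and at 1 to 6 of 6, against 0.248 to 0.745 and 0.276 to 3.24. The part of these other cell types in the results on channel genes was not tested.

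Sequence was at hand only for annotated promoters, so the 2 Kcn promoters overlapped by a Hoxb13 region in 2 libraries are shown, with the 250 bases before the annotated start. Both come from RefSeq on GRCm38.p6 and are written 5′ to 3′ on the minus strand, and capitals mark a match to TGACAG or its reverse complement CTGTCA, the letters of a Meis core site. The Kcnh2 promoter (chr5:24329592-24329841) holds 1 such match, and the Kcna5 promoter (chr6:126535556-126535805) holds none.
Kcnh2: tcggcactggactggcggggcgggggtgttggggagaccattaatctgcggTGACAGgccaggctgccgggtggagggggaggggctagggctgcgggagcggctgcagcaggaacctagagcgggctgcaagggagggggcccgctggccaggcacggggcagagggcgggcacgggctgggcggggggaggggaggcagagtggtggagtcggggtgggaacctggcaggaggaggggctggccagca
Kcna5: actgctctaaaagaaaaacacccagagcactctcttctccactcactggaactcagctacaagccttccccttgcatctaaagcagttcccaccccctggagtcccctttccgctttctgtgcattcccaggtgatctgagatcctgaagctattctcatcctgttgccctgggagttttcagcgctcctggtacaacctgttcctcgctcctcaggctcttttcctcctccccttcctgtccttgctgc

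The Kcnh2 start shown here lies inside the gene and marks a shorter transcript, and its promoter was rich in G and C (73.6% of bases, against a median of 55.6% over 21263 promoters of protein-coding genes in the table). A Meis1 peak of control 1 overlapped it, as did Hoxb13 peaks of control 1 and Paro/Neo 2. The Kcna5 promoter had 53.2% G and C. Over all these promoters, 15.4% held TGACAG or CTGTCA in the same 250 bases, and of the 94 Kcn promoters, which belong to 69 of the Kcn genes, 16 did. Letters of a Hoxb13 core (CAATAAA or its reverse complement TTTATTG) were held by 3.65% of all promoters and by 4 Kcn promoters. A second Hox core (TTTATGG or its reverse complement CCATAAA) was held by 2.04% of all promoters and by 0 Kcn promoters. Neither printed promoter holds either Hox core. A match describes letters only and is no proof of a bound site.

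Cardiac channel genes held Meis1 regions more often than genes of like length, while the neuronal channels lay near them. Regions called in 2 or more Meis1 libraries lay at 8 of 18 cardiac channels, among them Kcnd2, Kcne1, Kcnh2, Kcnj3, Kcnj5, Kcnj11 and Kcnn2. They lay at 4 of 26 neuronal channels (Kcnh1, Kcnip1, Kcnmb4 and Kcnq5), at 5 of 50 other Kcn genes, and so at 17 of 94 Kcn genes, where 6.19% of all protein-coding genes held one. Length matters for such counts, since a long gene offers more sequence to be hit. The share called among other genes of the same length class, with all genes divided into 10 classes of equal size, would give 1.96 cardiac and 3.10 neuronal channels and 8.89 Kcn genes. Cardiac channels thus held 4.08 times the number in genes of like length and neuronal channels 1.29 times. Regions per megabase of window, counted once for each gene whose window they met, numbered 3.79 at cardiac, 0.792 at neuronal and 1.25 at all protein-coding genes.

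Hoxb13 regions were also more frequent at cardiac than at neuronal channels with the lists as deposited. With lists of equal length, the 821 peaks of highest −log10 p in each, they lay at 1 of 18 cardiac and 2 of 26 neuronal channels. Regions called in 2 or more Hoxb13 libraries lay at 9 of 18 cardiac channels, among them Kcna5, Kcne1, Kcnh2, Kcnj5, Kcnj8, Kcnj11, Kcnk3 and Kcnn2. They lay at 2 of 26 neuronal channels (Kcnk4 and Kcnn1) and at 4 of 50 other Kcn genes, against 22.9% of all protein-coding genes. Genes of like length would give 4.47 cardiac, 6.51 neuronal and 12.4 other Kcn genes. The cardiac list was at 2.01 times its number in genes of like length and the neuronal list at 0.307 times. Per megabase of window, Hoxb13 regions counted in the same way numbered 4.21 at cardiac, 0.594 at neuronal and 4.7 at all protein-coding genes. By this measure the cardiac channels did not lie above all genes. At both neuronal genes the regions also lay in the window of a neighbouring gene. The Kcnk4 region and the stronger Kcnn1 region lay beyond the downstream ends of these genes, 12.6 and 17.3 kb from an annotated start. At Kcnk4 the region (chromosome 19, 6921339 to 6922530) is shared with Catsperz and Esrra, the latter a nuclear receptor gene of energy metabolism, and at Kcnn1 with Arrdc2 (chromosome 8, 70839303 to 70840139) and, for a weaker region, Ccdc124.

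**Figure D1:**
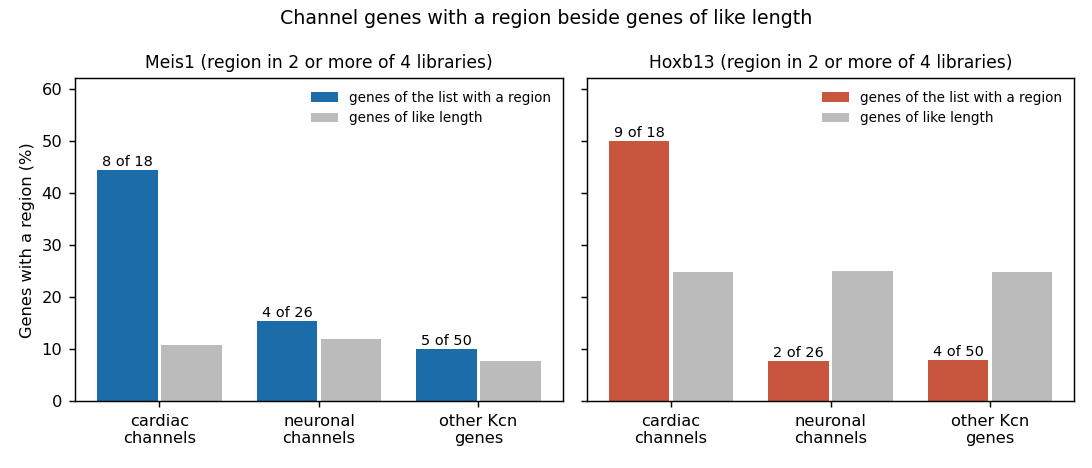
Percent of genes with a region called in 2 or more of the 4 libraries, for Meis1 (left) and Hoxb13 (right). Coloured bars give the channel lists with their counts, and grey bars the share in genes of the same length classes; cardiac channels stand at 44.4% and 50% against 10.9% and 24.8% in genes of like length.

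The lists were chosen with results of these data known and genes are not independent replicates, so these counts carry no test and nothing here shows the difference between the lists to be particular to them. The Hoxb13 counts rested on the long lists. Every one of the 10 Kcn regions called in exactly 2 Hoxb13 libraries was called in control 1 and Paro/Neo 2, as were 97.3% of all such regions. Without Paro/Neo 2 the cardiac count was 4 against 1.26 in genes of like length, and without control 1 it was 4 against 1.38, while the neuronal count was 2 in both cases, against 1.85 and 2.02. The low neuronal count relative to genes of like length was therefore not seen without either long list. For Meis1, leaving out control 1 or control 2 gave 6 cardiac channels each and 0 neuronal channels each, against 2.02 and 1.90 neuronal channels in genes of like length.

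The counts were then divided by gene length. In the longest class, genes of 108526 bp or more, Meis1 regions lay at 3 of 6 cardiac and 3 of 10 neuronal channels, and at 23.0% of other genes. Among shorter genes they lay at 5 of 12 cardiac and 1 of 16 neuronal channels, against 4.27% of other genes. Hoxb13 regions lay at 1 of 6 long cardiac and 0 of 10 long neuronal channels, and at 8 of 12 and 2 of 16 shorter ones, where other genes had 24.9% and 22.7%. The median length was 36658 bp for cardiac, 50612 bp for neuronal and 24385 bp for other Kcn genes.

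**Figure D2:**
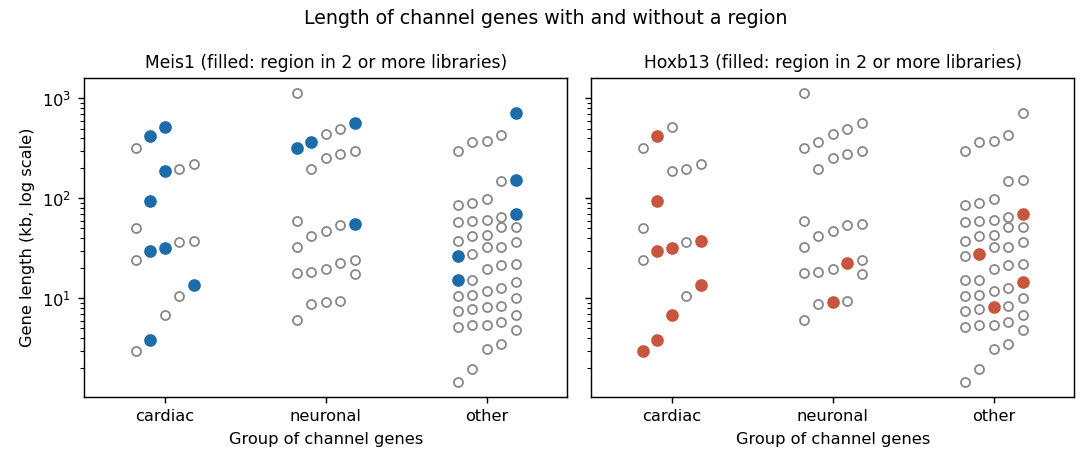
Length of each of the 94 Kcn genes in kb on a log axis, by group, for Meis1 (left) and Hoxb13 (right); filled points are genes with a region called in 2 or more libraries. Meis1 regions lie at cardiac genes from 3830 to 514460 bp and at neuronal genes from 55999 bp, and Hoxb13 regions at genes below the longest class, Kcnn2 apart.

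Among the delayed rectifiers, Kcnh2 carried Meis1 regions at 2 places, each called in all 4 libraries. Kcnh2 encodes the pore of the rapid delayed rectifier, whose loss prolongs the QT interval. A region 1.02 kb beyond the upstream end of the gene (chromosome 5, 24352494 to 24352915) had fold enrichments of 7.6 and 7.29 in the control Meis1 libraries 1 and 2, and of 5.29 and 4.52 in Paro/Neo 1 and 2. A second region within the gene (24337357 to 24337830) had folds of 7.17, 7.14, 6.37 and 4.75 in the same order. In each region the control folds lay above the Paro/Neo folds, although folds of separate lists are on scales of their own. Fold percentiles, the rank of a peak within its own list with 100 as the strongest, were 90.1, 87.1, 61.6 and 30.9 for the outer region, which a wide Hoxb13 region of Paro/Neo 2 alone also covered. The Hoxb13 region over the inner promoter printed above (24329208 to 24330339) was called in control 1 at a fold of 3.25 and in Paro/Neo 2 at 4.24.

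Kcne1, the accessory subunit of the slow delayed rectifier, held overlapping regions of both antibodies at the lower-coordinate end of the gene. The Meis1 region (chromosome 16, 92346297 to 92346824) had folds of 6.22 and 4.71 in the control libraries and no peak in either Paro/Neo library. The Hoxb13 region (92344395 to 92346832) had folds of 3.97 in control 1 and 5.20 in Paro/Neo 2, at percentiles of 87.7 and 98.7. The Meis1 peaks were thus in the control libraries alone and the Hoxb13 peaks in the longest lists alone. Kcnq1, which forms the pore of the same channel, had a Meis1 peak in control 1 alone (fold 5.02) and 5 Hoxb13 regions in Paro/Neo 2 alone.

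The transient outward and ultra-rapid currents were unevenly marked. Kcnd2, a pore subunit of the fast transient outward current, carried a Meis1 region 52.7 kb inside the gene (chromosome 6, 21267853 to 21268207) in all 4 libraries, with folds of 6.05 and 8.17 in control and 4.12 and 4.76 in Paro/Neo. Its fellow subunit Kcnd3 had 0 Meis1 peaks and 1 Hoxb13 peak, in Paro/Neo 2, and Kcnip2, which modulates both, had no peak in any of the 8 libraries. Kcna4, which carries the slow transient outward current, had a weak Meis1 peak in control 1 alone (fold 3.53, percentile 9.86). Kcna5, the ultra-rapid delayed rectifier, had a Hoxb13 region across its start site (chromosome 6, 126535416 to 126535703), with folds of 4.12 in control 1 and 4.25 in Paro/Neo 2 at percentiles of 90.5 and 95.1, and a weak Meis1 peak in Paro/Neo 1 alone (fold 3.73).

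Inward rectifiers divided by current. Kcnj5 and Kcnj3 form the channel that acetylcholine opens in the heart. At Kcnj5 the Meis1 region 0.629 kb outside the gene (chromosome 9, 32313723 to 32314431) had folds of 6.89 and 8.33 in control and 6.58 and 6.46 in Paro/Neo, at percentiles from 81.2 to 92.3. All 4 libraries thus held it among their stronger peaks. A Hoxb13 region overlapped it (32313846 to 32314414), at folds of 3.43 in control 1 and 4.78 in Paro/Neo 2. Both regions lay beyond the downstream end of the gene, the Hoxb13 region 30.2 kb from the annotated start. Kcnj3 had a weak Meis1 region in 3 libraries, with folds of 4.05 and 4.05 in control and 4.21 in Paro/Neo 2.

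The ATP-sensitive channels were marked at both pore genes. Kcnj11, the pore subunit of heart muscle, had a Meis1 region 0.765 kb outside the gene (chromosome 7, 46096211 to 46096506) in 3 libraries, with folds of 5.43 and 7.66 in control and 4.91 in Paro/Neo 1. It lay inside a merged Hoxb13 region of 7197 bp (46092580 to 46099776). This wide region was called in control 1, Paro/Neo 1 and Paro/Neo 2 at highest folds of 3.71, 4.20 and 3.81. The Paro/Neo 1 peaks within it (46094964 to 46095483 and 46098691 to 46098874) did not touch the Meis1 region. The wide Hoxb13 region also reaches the window of Abcc8, which encodes a sulphonylurea receptor, the regulatory subunit of these channels. Kcnj8, the pore known best from vascular muscle, had 0 Meis1 peaks and a Hoxb13 region in 3 libraries (chromosome 6, 142563791 to 142564713). This region lay beyond the downstream end of the gene, 7.36 kb from the annotated start. Its folds were 3.67 and 3.42 in control and 3.34 in Paro/Neo 2. Kcnj2, the main pore of the resting inward rectifier, had no peak in any library, and its relative Kcnj12 had 1, in Hoxb13 Paro/Neo 2.

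**Figure D3:**
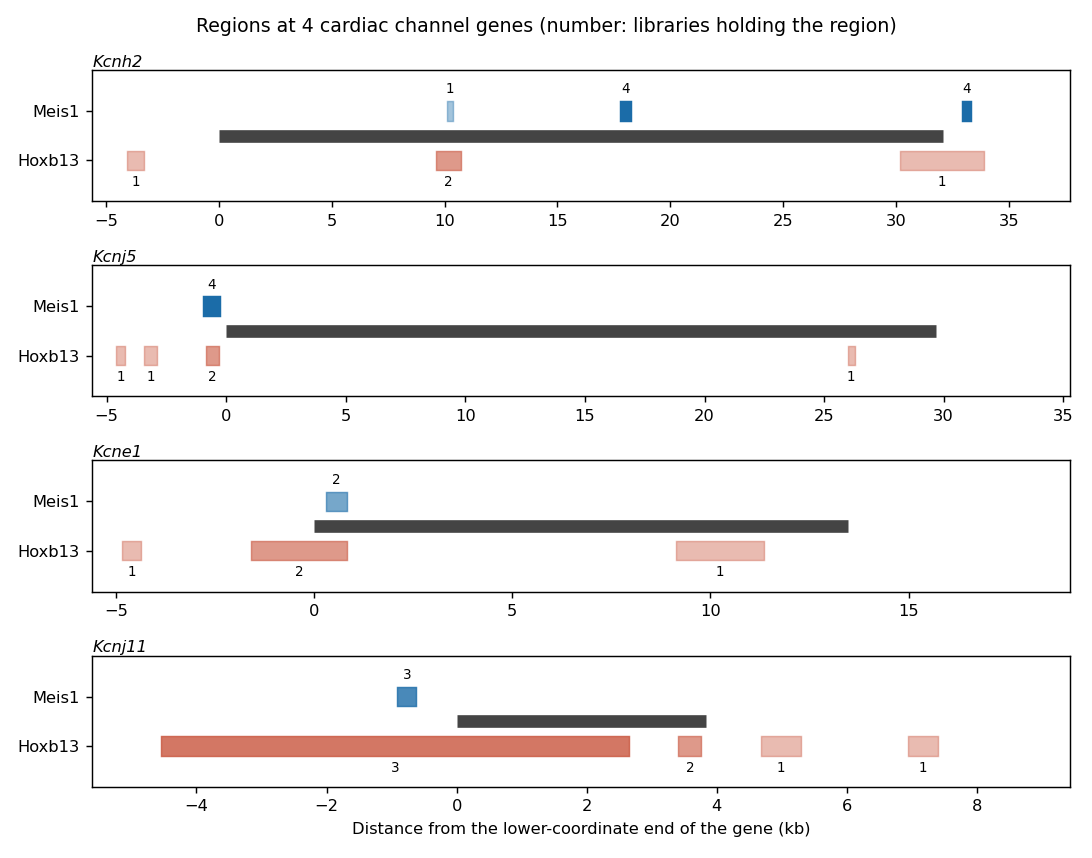
Regions at Kcnh2, Kcnj5, Kcne1 and Kcnj11, by distance in kb from the lower-coordinate end of each gene (dark bar: gene body). Meis1 regions are drawn above and Hoxb13 regions below, each with the number of libraries holding it; the Meis1 region overlaps a Hoxb13 region at the lower-coordinate end of Kcnj5, Kcne1 and Kcnj11.

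Background channels and calcium-activated channels completed the cardiac list. Kcnk3, an acid-sensitive background channel, had 0 Meis1 peaks and a Hoxb13 region 2.54 kb outside the gene in 3 libraries (chromosome 5, 30626563 to 30629053), with folds of 3.27 in control 1, 3.95 in Paro/Neo 1 and 3.54 in Paro/Neo 2. Kcnk2, a stretch-sensitive background channel, had none in any library. Kcnn2 encodes a small-conductance calcium-activated channel, and its Hoxb13 region 0.368 kb outside the gene (chromosome 18, 45268220 to 45268545) had the highest fold percentile of any Kcn gene in 3 of 4 Hoxb13 libraries. Its folds were 6.12 and 4.39 in control and 5.40 and 5.61 in Paro/Neo, at percentiles of 98.9, 87.5, 95.2 and 99.2. It was the single cardiac channel with a Hoxb13 region in all 4 libraries. A Meis1 region lay 90.0 kb from the gene ends (45595798 to 45596056), with folds of 4.34 and 4.33 in control and none in Paro/Neo.

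**Figure D4:**
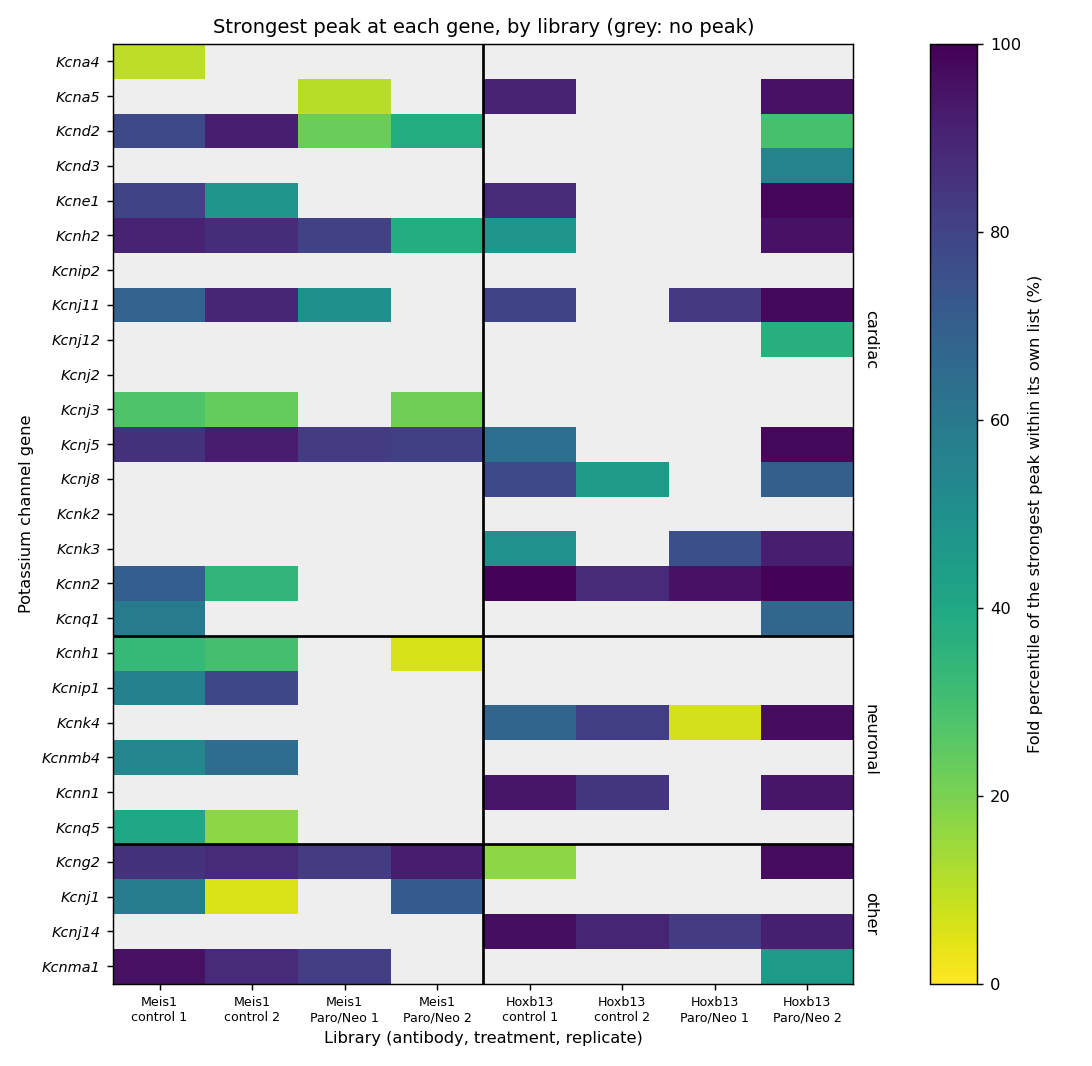
Percentile of the fold of the strongest peak at each gene within its own list, by library, for 17 cardiac channels, the 6 neuronal channels with a region in 2 or more libraries and the 4 other Kcn genes with one in 3 or more; grey marks no peak. Kcnd2, Kcnh2, Kcnj5 and Kcng2 are filled in all 4 Meis1 columns, and Kcnn2, Kcnk4 and Kcnj14 in all 4 Hoxb13 columns.

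The most reproducible regions followed the same division for Meis1. Regions in all 4 Meis1 libraries lay at 5 Kcn genes, where 1.75% of all genes held one, and 4 of the 5 were cardiac channels, among them Kcnd2, Kcnh2 and Kcnj5. The fifth was Kcng2, a modifier subunit of voltage-gated channels. None of the 26 neuronal channels held one, and genes of like length would give 0.891. The Kcng2 region (chromosome 18, 80330270 to 80331581) had folds of 6.84 and 7.43 in control and 6.6 and 8.00 in Paro/Neo, so the groups overlapped. Among other Kcn genes, Kcnma1, the large-conductance calcium-activated channel of smooth muscle and neurons, had a strong Meis1 region deep in the gene (chromosome 14, 23682713 to 23683091) with folds of 9.38 and 7.36 in control and 6.56 in Paro/Neo 1. Kcnj1, known from the kidney, had a region in both controls and Paro/Neo 2, with folds of 4.98, 3.48 and 5.85. Named after their values were seen, Kcnn3 and Kcnv2 completed the Meis1 list with regions in both controls. Kcnd1 and Kcnh6, named likewise, completed the Hoxb13 list with regions in control 1 and Paro/Neo 2. Both Hoxb13 regions lay outside the channel gene and in a neighbour's window, that of Otud5 at Kcnd1 and of Dcaf7 at Kcnh6.

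For Hoxb13, regions in all 4 libraries lay at 4 Kcn genes, against 2.84% of all genes and a number of 2.80 in genes of like length. Besides Kcnn2 these were Kcnk4, Kcnj14 and Kcng2. The Kcnj14 region (chromosome 7, 45813946 to 45814637) had folds of 4.79 and 4.55 in control and 4.15 and 3.95 in Paro/Neo, and is shared with Cyth2. The Kcnk4 region had folds of 3.48 and 4.04 in control and 2.95 and 4.52 in Paro/Neo. The Kcng2 region was 15401 bp wide, lay mostly outside the gene's window and was shared with Slc66a2, so that only control 1 and Paro/Neo 2 had a peak at Kcng2 itself.

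Some cardiac channels held regions of both antibodies. Regions in 2 or more libraries of each antibody lay at 6 of 18 cardiac channels (among them Kcne1, Kcnh2, Kcnj5, Kcnj11 and Kcnn2), at 0 of 26 neuronal channels and at 1 other Kcn gene, against 2.70% of all genes. Genes of like length would give 0.807 cardiac and 1.26 neuronal channels. The regions themselves overlapped at 3 of the 6, Kcne1, Kcnj5 and Kcnj11, and at Kcng2. Overlap is of merged regions, so single peaks within them need not overlap, as for Hoxb13 Paro/Neo 1 at Kcnj11. Of the 18 Meis1 regions at Kcn genes, 22.2% overlapped a Hoxb13 region called in 2 or more libraries, and of all Meis1 regions at protein-coding genes 13.0%; of the 18 Hoxb13 regions at Kcn genes 22.2% overlapped a Meis1 region, and of all Hoxb13 regions at genes 4.39%.

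The antibodies differed in where their regions lay in these genes. Of the Meis1 regions at Kcn genes, 13 of 18 lay wholly within the gene, at a median of 25.1 kb from the nearer gene end, and 3 of 18 Hoxb13 regions did, at a median of 1.12 kb. Over all protein-coding genes, 74.2% of Meis1 and 21.8% of Hoxb13 regions lay wholly within the gene, at medians of 12.1 and 0.478 kb. Here a region was counted once for each gene whose window it met. The shares within the gene were thus close to those of all genes, while the regions at Kcn genes lay farther from a gene end. A gene end here is either end of the gene and not its start alone. These distances were not set beside genes of like length, and the median length was 32691 bp for Kcn genes and 17169 bp for all genes. By list, the Meis1 medians were 14.1 kb at cardiac, 125 kb at neuronal and 33.3 kb at other Kcn genes. The Hoxb13 medians were 0.581, 3.44 and 3.27 kb. The 4 neuronal Meis1 regions lay from 14.7 to 216 kb from a gene end, and the 9 cardiac ones from 0.559 to 90.0 kb. The median width was 327 bp for Meis1 and 908.5 bp for Hoxb13 regions at Kcn genes.

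The counts by channel class, between which no difference was tested, were as follows. Of 15 inward rectifiers, 4 held a Meis1 and 4 a Hoxb13 region, where genes of like length would give 1.07 and 3.73. Of 40 genes of the voltage-gated family, modifier subunits such as Kcng2 included, 7 and 6 held one, against 4.04 and 10.1. Of 14 tandem-pore background channels, 0 and 2 did, against 1.09 and 3.46, and of 8 calcium- and sodium-activated channels 3 and 2, against 1.17 and 2.05. Of 17 accessory subunits, 3 held a Meis1 region (Kcne1, Kcnip1 and Kcnmb4) and 1 a Hoxb13 region (Kcne1), against 1.53 and 4.03. In all, 50 of 94 Kcn genes had no peak in any of the 8 libraries, among them 3 cardiac (Kcnip2, Kcnj2 and Kcnk2) and 19 neuronal channels. The share over all genes was not computed for both antibodies together. By antibody, 27 Kcn genes held a region in 1 or more Meis1 libraries, against 16.2 in genes of like length and 11.8% of all genes. For Hoxb13 these were 32, against 50.2 and 47.6%.

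Partners and regulators of the channels were taken from a list of 10 genes. Meis1 regions lay at 3 of them, Abcc8, Abcc9 and Dlg1, against 1.38 in genes of like length, and Hoxb13 regions at Abcc8 and Dlg1, against 2.47. Abcc9, the sulphonylurea receptor of heart and vessels, held a Meis1 region within the gene (chromosome 6, 142689691 to 142690012) with folds of 11.7 and 12.9 in control and 5.53 and 7.78 in Paro/Neo. Its control percentiles, 98.5 and 99.0, were above those of every Kcn gene in the same 2 libraries. Abcc8 held one in all 4 libraries (chromosome 7, 46115974 to 46116349) with folds of 7.58, 8.03, 6.76 and 8.28, which a Hoxb13 region overlapped. Dlg1, a scaffold that anchors channels, had a Meis1 region in 3 libraries and a Hoxb13 region at an annotated start site in control 1 and Paro/Neo 2.

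After Paro/Neo, fewer Kcn genes held a Meis1 peak, as did fewer genes in all. Meis1 peaks lay at 23 and 19 Kcn genes in control 1 and 2 and at 10 and 8 in Paro/Neo 1 and 2. The groups did not overlap, and the mean fell from 21 to 9. Over all protein-coding genes the shares with a peak were 8.59% and 8.21% in control and 4.07% and 2.83% in Paro/Neo. Cardiac channels with a peak numbered 10 and 8 in control and 6 and 5 in Paro/Neo, and neuronal channels 5 and 4 against 0 and 1. Genes of like length would give 2.65 and 2.55 cardiac channels in control and 1.33 and 0.910 in Paro/Neo, and for neuronal channels 4.13 and 4.04 against 2.11 and 1.45. When only the 1025 peaks of highest −log10 p were kept per list, the mean number of Kcn genes was 8 in control and 7 in Paro/Neo. With the second replicates exchanged, as the letters of the file names would have it, the difference was −1 gene in place of −12. A count over members gets no p here, and 2 against 2 libraries could not give a two-sided exact permutation p under 0.333.

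The channels whose Meis1 region was called again after Paro/Neo were mostly those with strong control peaks. All 17 Kcn genes with a Meis1 region in 2 or more libraries held one in both controls. Of these, 5 had it again after Paro/Neo in 2 libraries, 4 in 1 and 8 in neither, and over all genes with a region in both controls 38.5% had it in neither. Among cardiac channels, Kcne1 and Kcnn2 were in neither. All 4 neuronal channels were in neither Paro/Neo library: Kcnh1 (folds 4.22 and 4.21), Kcnip1 (4.92 and 6.17), Kcnmb4 (4.84 and 5.29) and Kcnq5 (4.41 and 3.85). Kcnh1 had another, weak peak in Paro/Neo 2 (fold 3.53), away from its control region. Of 8 Kcn regions whose mean percentile in the controls was above 70, 8 were called again in at least 1 Paro/Neo library. Of 4 between 50 and 70, 0 were, and of 6 below, 2 were. Over all Meis1 regions in both controls, 87.2% were called again above a mean percentile of 70, 56.3% between 50 and 70 and 30.7% below. Counted over all genes, 2.43% held a region in both controls and neither Paro/Neo library, against 8 of 94 Kcn genes and 3.52 in genes of like length, and 0.032% held the reverse, against 0 of 94.

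For Hoxb13, the number of Kcn genes with a peak rose with the length of the list in both treatments. Peaks lay at 16 and 5 Kcn genes in control 1 and 2 and at 5 and 31 in Paro/Neo 1 and 2, so the groups overlapped. All protein-coding genes gave 24.2%, 5.79%, 4.20% and 46.5% in the same order. Cardiac channels numbered 9, 2, 3 and 13 of 18, where genes of like length would give 4.81, 1.12, 0.837 and 9.42. Neuronal channels numbered 2, 2, 1 and 3 of 26, where genes of like length would give 7.03, 1.65, 1.24 and 14.0. The shortfall of neuronal channels was thus present in the long lists; in the short lists, control 2 and Paro/Neo 1, the counts lay within 1 gene of the number in genes of like length. The mean was 7.5 Kcn genes higher after Paro/Neo, and without Paro/Neo 2 it was 5.5 lower. No Kcn gene held a Hoxb13 region in both libraries of a group and neither of the other, where 0.0137% of all genes held a control-specific and 0.169% a Paro/Neo-specific one.

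**Figure D5:**
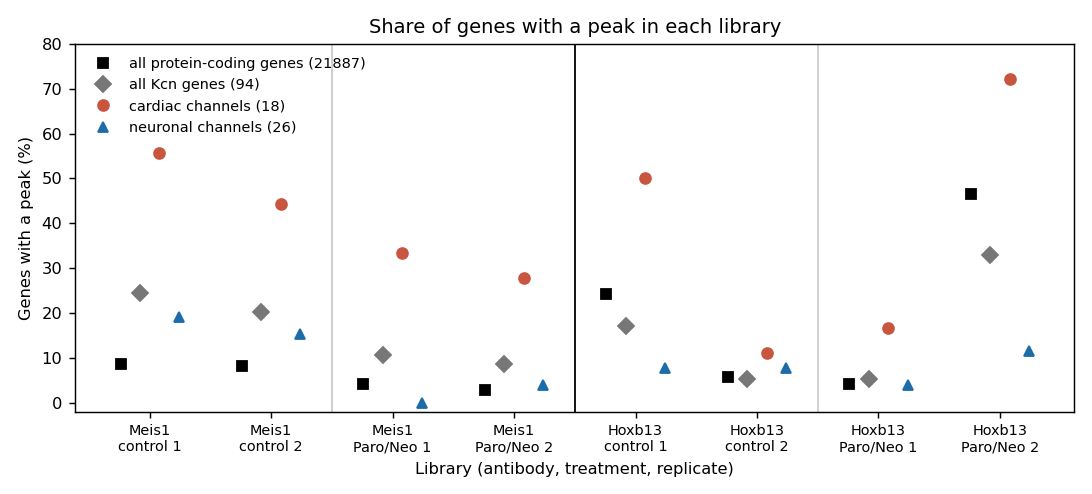
Percent of genes with a peak in each of the 8 libraries, for all protein-coding genes, all Kcn genes, cardiac channels and neuronal channels. Cardiac channels lie above all protein-coding genes in every library, from 11.1% in Hoxb13 control 2 to 72.2% in Hoxb13 Paro/Neo 2, and neuronal channels lie below them in the long Hoxb13 lists (7.69% and 11.5%).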

How the data were processed

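The submitters' processing notes name the build mm10 and the tools MACS2, HOMER, Bowtie2, Picard 1.127 and FastQC 0.11.5. How peaks were called (options, inputs used as control, filters) is not stated there. The deposited broadPeak lists hold 1 list per library, with the fold (a ratio to local background), −log10 p, −log10 q and a score that equals 10 times the −log10 q, rounded down, in 100% of peaks. These are the authors' values, used to rank or filter peaks within a list. The depth of reads is unknown, so no detection limit or interval could be given.

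Gene positions, protein-coding status, promoters and strand came from RefSeq tables of GRCm38.p6, whose coordinates are those of mm10; 69 of 94 Kcn genes had a promoter there. Peaks were merged and assigned with Python 3.11.15 and pandas 2.3.3, checked on simulated peaks. The number in genes of like length sums, over a list, the share called among genes outside the Kcn family in each member's length class. The members and lists were chosen with earlier results of these data known, and no list was tested. Named genes are the cardiac channels (the values of 1 are not reported here, though all counts include it), neuronal channels and partners with a region in 2 or more libraries, other Kcn genes with one in 3 or more, up to 5 with the highest percentile, and neighbours sharing a region. Alternatives covered the q threshold, the window, the overlap, list length, the libraries required, length classes and each library left out.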

Additional observations from a re-analysis of the deposited data

How the results depend on the processing

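No paired analysis was possible because the results are counts over peak lists and come from no test; replicate numbers are shared between groups, but nothing ties equal numbers to one animal or batch. The cardiac channels stayed above their number in genes of like length in all 12 settings for which it was computed, at 3.40 to 7.63 times for Meis1 and 1.05 to 3.17 times for Hoxb13. For Hoxb13 the count was nearly level with that number in the gene body alone (4 against 3.8) and with lists of equal length (1 against 0.896). The neuronal channels were below it in 5 of 12 settings for Meis1 and in 9 of 12 for Hoxb13. Counts of genes with a region stayed within 1.5 times the main count except under the settings that follow, where the cause was not tested.

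Within 5 kb of a gene end only, Meis1 regions lay at 6 Kcn genes, 4 cardiac and 0 neuronal channels. Genes of like length would give 2.8, 0.524 and 0.808. The Paro/Neo difference was −3 genes in this setting. With lists of equal length, Meis1 gave 7 Kcn genes, 5 cardiac and 0 neuronal channels (4.17, 0.926 and 1.46 in genes of like length). Hoxb13 gave 4 Kcn genes, 1 cardiac and 2 neuronal channels (4.7, 0.896 and 1.31 in genes of like length). The Paro/Neo difference was then −1 for Meis1, and 1.5 in place of 7.5 for Hoxb13. With regions in 3 or more libraries, Meis1 gave 9 Kcn genes and 0 neuronal channels (4.92 and 1.73 in genes of like length). Hoxb13 gave 8 Kcn genes and 4 cardiac channels (6.83 and 1.3 in genes of like length). In the gene body alone, Hoxb13 gave 6 Kcn genes, 4 cardiac and 1 neuronal channel, against 19.6, 3.8 and 5.53 in genes of like length. The cardiac count was thus close to its number in genes of like length there. Without regions in another gene's window, chosen after seeing the data, Hoxb13 gave 9 Kcn genes, 8 of them cardiac, and 0 neuronal channels. The 0 follows from the shared windows already described, and no share over all genes was computed. Exchanging the second Meis1 replicates gave a difference of −1. Leaving out 1 library at a time gave 9 to 17 Kcn genes, 6 to 8 cardiac and 0 to 4 neuronal channels for Meis1, and 7 to 15, 4 to 9 and 2 to 2 for Hoxb13. The Paro/Neo difference then ran from −14 to −10 for Meis1 and from −5.5 (without Paro/Neo 2, reversed) to 20.5 for Hoxb13.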
